A study of Mus musculus with 9 samples.

Results

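This account compares tumour-associated macrophages from OMVs-treated mice with those from Control mice across every measured gene, using 6 of the 9 libraries for the comparison (OMVs 1 to 3 and Control 1 to 3). The libraries were chosen by their labels alone, and IN@OMVs enters only where stated. All 9 came from wild-type female C57BL/6 mice, aged 6 to 8 weeks when 1000000 MC38 cells, a mouse colon carcinoma line, were placed under the skin of the back. Groups were formed on day 9. OMVs mice received 12.5 µg of vesicle protein each (625 µg per kg of body weight) into the tumour, IN@OMVs mice the same amount of the vesicles labelled IN@OMVs, and Control mice an equal volume of solvent, which the labels also name as PBS. Cells positive for CD11b and F4/80 were then sorted by flow cytometry and their RNA was sequenced. How long after the injection the tumours were taken, how many injections were given, and whether a replicate was 1 mouse or a pool are not stated in the sources used here. The p-values below therefore measure the spread between these libraries.

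Outer membrane vesicles, the usual meaning of OMVs, are small particles that Gram-negative bacteria bud from their surface. They carry lipopolysaccharide, peptidoglycan fragments and bacterial proteins. Macrophages sense these through TLR4, NOD1 and related receptors, whose signals reach NF-kB and the interferon regulatory factors. Interferon-gamma, made mainly by T and NK cells, acts on macrophages through JAK kinases and raises IRF1, the guanylate-binding proteins, the immunity-related GTPases and the chemokines that bind CXCR3. In tumours, macrophages range from recently arrived monocytes to resident-like scavenger cells that carry CD163 and LYVE1.

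The libraries held 16813230 to 17288322 expected counts, and 13090 of the 18042 genes in the table passed the filter on low counts. Levels are given as CPM (counts scaled to the normalised library size). IN@OMVs 1 stood apart: it lay at -46.57 on a first principal component that carried 45.7% of the variance, where the other 8 libraries lay between -2.28 and 13.7. It shares the estimate of spread with the comparison below, so the counts of calls, and the adjusted p of each gene described whose call it changes, are given without it too. The levels of both sort markers overlapped between the groups. Adgre1, which encodes F4/80, stood at 441, 462 and 617 CPM in OMVs 1, 2 and 3 and 462, 476 and 545 CPM in Control 1, 2 and 3, and Itgam, which encodes CD11b, at 1501, 1592 and 1896 CPM in OMVs 1, 2 and 3 and 1726, 1735 and 1798 CPM in Control 1, 2 and 3. T cell markers (13 of 13 in the table, none at 0 in all libraries) summed to 279, 109 and 132 CPM in OMVs 1, 2 and 3 and 311, 101 and 96 CPM in Control 1, 2 and 3, and the 7 NK cell markers to 59.6, 13.2 and 14 and 70.0, 11.1 and 11.1 CPM. The libraries numbered 1 were thus high in lymphocyte transcripts in both groups. Transcripts of 9 fibroblast markers summed to 4455, 5125 and 3890.0 CPM and 4724, 6511 and 5732 CPM, and those of 7 epithelial or tumour markers to 1.03, 0.466 and 0.956 and 1.49, 1.52 and 1.21 CPM.

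**Figure D1:**
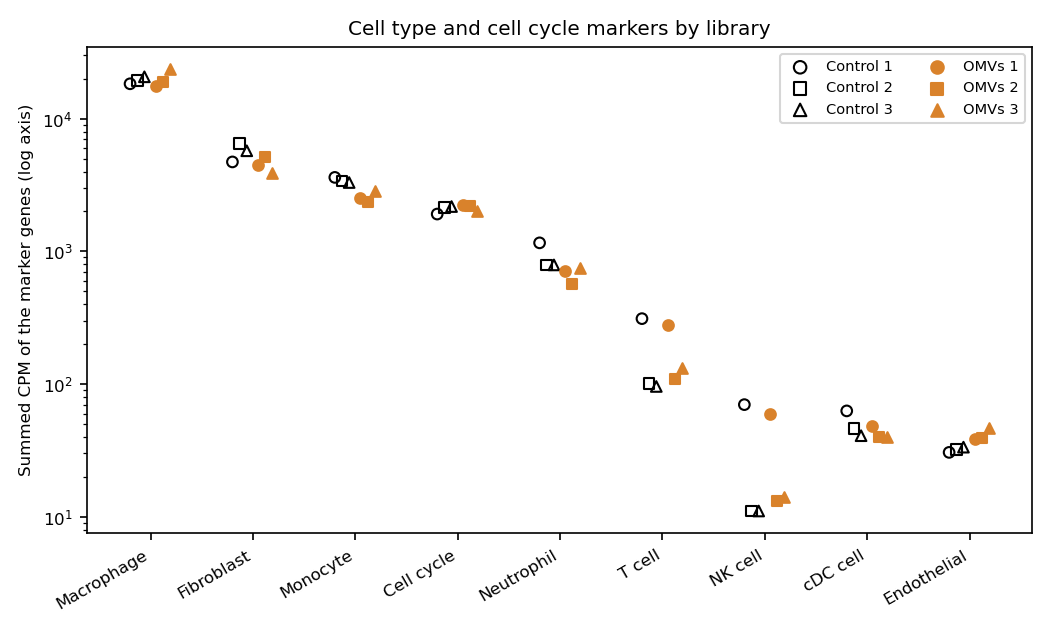
Summed CPM of marker genes (log axis) for each OMVs (filled) and Control (open) library, with symbols for replicate numbers 1, 2 and 3. T and NK cell markers were high in both libraries numbered 1, monocyte markers were lower in all 3 OMVs libraries than in all 3 Control libraries, and macrophage markers overlapped.

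With OMVs, 39 of the 13090 genes tested rose (0.298%) and 16 fell (0.122%) at an adjusted p under 0.05 in edgeR's quasi-likelihood test. The genes that rose included interferon-gamma targets, chaperones of the heat shock response, the growth factors Pgf and Nrg1 and the chemokine Cxcl1. Those that fell included the scavenger receptors Cd163 and Lyve1, the alternative activation genes Chil3 and Retnla, and the cold-inducible RNA-binding genes Cirbp and Rbm3. Rises were small, with log2 fold changes from 0.33 (Bag3) to 1.31 (Pgf). Falls ran from -0.36 (Fkbp5) to -2.50 (Retnla). In sorted bulk cells, fewer cells of one type and less RNA per cell cannot be told apart. All 55 genes had OMVs and Control values that did not overlap, as did 9.89% of all genes tested in the higher direction and 9.89% in the lower. Counts of list members without overlap below are to be read beside these shares. The median log2 fold change of all genes was -0.00049.

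The number of calls depended on the libraries. With the replicate number as a block, 12 genes rose (0.0917%) and 8 fell (0.0611%), and 15 of the 55 were among them: Gbp6, Tgtp2, Chordc1, Slamf8, Nrg1, Dnaja1, Pgf, LOC118568792 and Cxcl1 among those that rose, and Xlr3b, Chil3, Cd163, Lyve1, Nr4a1 and Retnla among those that fell. The other 40 had adjusted p-values of 0.0532 to 0.135 with the block. This block spans all 9 libraries. Deviations from the group means of IN@OMVs and OMVs libraries of the same number gave mixed correlations (-0.0383, 0.612 and -0.508). IN@OMVs 1 did share the high lymphocyte transcripts of OMVs 1 and Control 1. T cell markers summed to 323, 122 and 181 CPM in IN@OMVs 1, 2 and 3, and NK cell markers to 50.7, 14 and 23.4 CPM. With the block in the 6 OMVs and Control libraries alone, 118 genes rose (0.91%) and 77 fell (0.594%) of 12961 tested, with all 55 among them. Values with the block below are those of the 9 libraries. Without IN@OMVs 1, 152 genes rose (1.15%) and 114 fell (0.862%) of 13220 tested, with all 55 among them at adjusted p-values of 0.000596 to 0.016. Counts of list members called in that fit are to be read beside these shares. Of the 30 gene and marker lists below with 0 calls, 15 held 1 to 3 calls without IN@OMVs 1. Without the 3 libraries numbered 1, 313 genes passed, 54 of the 55 among them. Leaving out OMVs 2, OMVs 3, Control 2 or Control 3 left 0 genes past the threshold (734, 942, 787 and 803 at an unadjusted p under 0.05), Control 1 left 5 and IN@OMVs 3 left 1. Over 17 alternative settings the adjusted p-values of the 55 genes ran from 1.49e-17 to 0.306, and all 55 kept their direction in each.

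**Figure D2:**
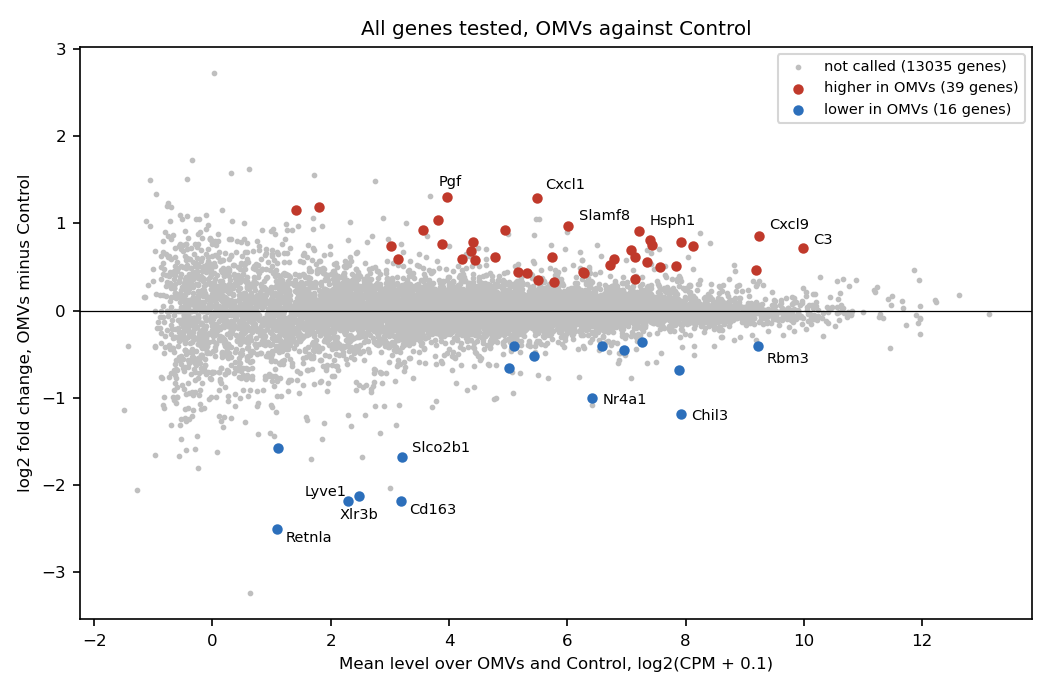
Each point is a gene, with the mean level over the OMVs and Control libraries on the x axis (log2 of CPM plus 0.1) and the log2 fold change of OMVs minus Control on the y axis. The 39 genes that rose (red) lay at or under 1.31, while the falls (blue) of Retnla, Cd163, Xlr3b and Lyve1 exceeded 2 on this scale.

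**Figure D3:**
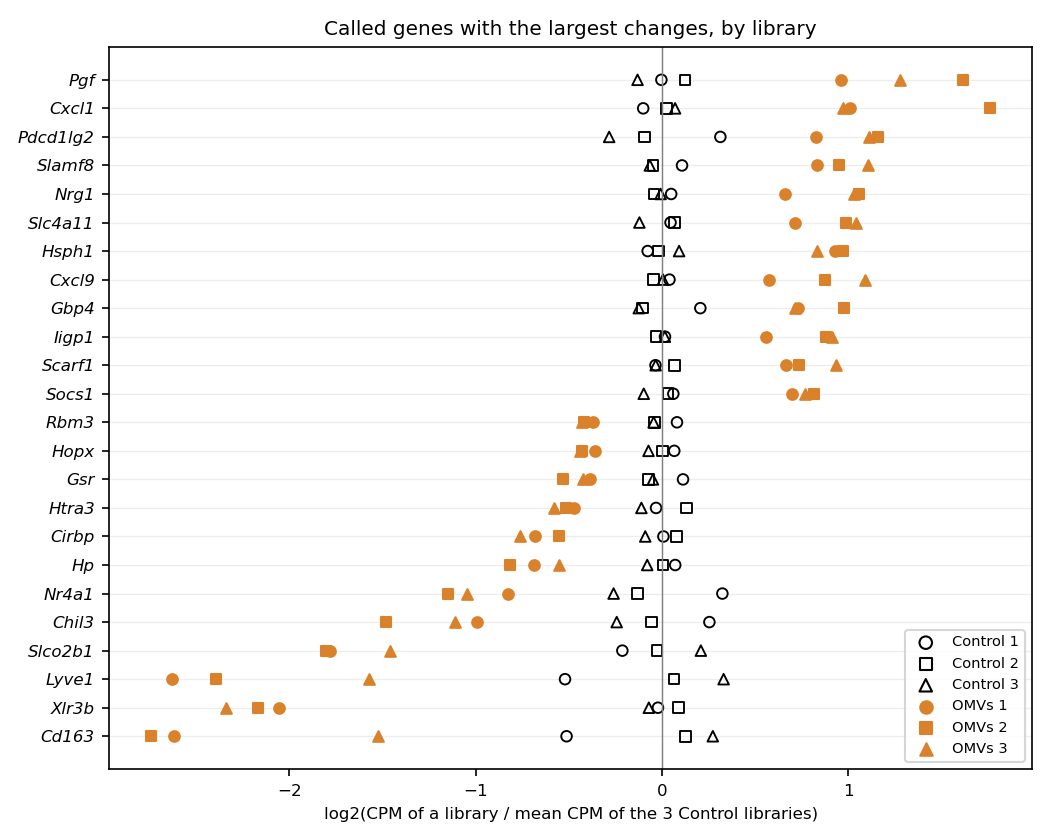
Values by library of 24 of the genes that passed, the 12 with the largest rises and the 12 with the largest falls at a mean of at least 5 CPM in the higher group (predicted gene models left out), as log2 of CPM over the mean of the 3 Control libraries, with open symbols for Control and filled symbols for OMVs. In each gene shown the 3 OMVs libraries lie on one side of the 3 Control libraries, and Cd163 and Lyve1 have the widest spread within a group.

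Interferon-inducible GTPases, which attack the vacuoles and membranes of intracellular microbes, made up the largest group among the rises. Of 18 members tested, 10 rose and 0 fell. OMVs and Control did not overlap in 17 of the 18, all higher. The median log2 fold change was 0.60 against -0.00049 over all genes, and 0.56 to 0.64 when any 1 library was left out. With the block 2 members rose, and 15 rose without IN@OMVs 1. Gbp6, a guanylate-binding protein, stood at 206, 228 and 219 CPM in OMVs 1, 2 and 3 and 141, 124 and 122 CPM in Control 1, 2 and 3 (log2 fold change 0.75 ± 0.073 SE, adjusted p = 0.0183). Log2 differences below are log2 fold changes of OMVs minus Control with the standard error of the fit. Iigp1, an immunity-related GTPase, stood at 262, 326 and 334 CPM in OMVs 1, 2 and 3 and 179, 174 and 179 CPM in Control 1, 2 and 3, a log2 rise of 0.79 ± 0.092 (adjusted p = 0.0234, adjusted p = 0.0532 with the block). OMVs 1 was the lowest of the OMVs libraries for both genes and still lay above every Control library. Tgtp2, of the same family and only by name a T cell specific GTPase, stood at 154, 172 and 175 CPM with OMVs against 108, 101 and 99.9 CPM in Control (log2 difference 0.70 ± 0.075, adjusted p = 0.0234). Gbp4 stood at 203, 241 and 201 CPM with OMVs against 141, 114 and 112 CPM in Control (log2 difference 0.81 ± 0.11, adjusted p = 0.0234, adjusted p = 0.0652 with the block).

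The other GTPases that rose were Irgm1 (log2 difference 0.55 ± 0.068), Irgm2 (log2 difference 0.52 ± 0.068) and Igtp (log2 difference 0.62 ± 0.081), the regulatory IRG proteins, the guanylate-binding proteins Gbp5 (log2 difference 0.59 ± 0.093) and Gbp3 (log2 difference 0.37 ± 0.055), and the predicted gene Gm4951 (log2 difference 0.61 ± 0.088). With the block their adjusted p-values were 0.0603, 0.0532, 0.0603, 0.0759, 0.107 and 0.0532. Of the members that did not pass, Tgtp1 had a log2 fold change of 0.86 ± 0.15 (adjusted p = 0.00645 without IN@OMVs 1) and Gbp2 of 0.52 ± 0.092 (adjusted p = 0.014 without IN@OMVs 1). Only Gbp2b, at 0.10 ± 0.21, had overlapping groups. These genes are close copies of one another. Expected counts of Gbp6, Tgtp2, Gbp4 and Tgtp1 were fractional in all 9 libraries, those of Iigp1 and Gm4951 in 4 and those of Irgm2, Igtp and Gbp3 in 1. Fractions mark reads that the counting split between similar sequences, and the values of single members are uncertain.

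Promoter letters of the genes that rose are shown because interferons act on such genes through short DNA motifs, the GAS element and the ISRE, the second bound by IRF factors. Which interferon, if any, acted on the genes that rose was not tested. RefSeq windows on GRCm38.p6 (250 bases before to 50 after a gene's start, matched by symbol) were found for 10464 of the 13090 genes tested. The letters TTCNNNGAA for GAS and GAAANNGAAA for ISRE were searched on both strands. Of 12 interferon-inducible GTPases with a window, 11 held an ISRE match (91.7%) and 6 a GAS match, against 3.99% with ISRE and 8.37% with GAS among all genes with a window. Among the 39 genes that rose, 28 had a window, of which 11 held ISRE (39.3%) and 7 GAS. Of the 16 that fell, 11 had a window, with 0 ISRE and 2 GAS matches. A match is a description of letters, not a measured binding site, and Gbp3 and Gbp4 are assigned the same window. In the 120 bases before each start below, GAS and ISRE matches are in capitals, 5′ to 3′ on the gene's strand. Tgtp2 lies at chr11:49064213-49064332, minus strand, Igtp at chr11:58199436-58199555, plus strand, Irgm2 at chr11:58214857-58214976, plus strand, Irgm1 at chr11:48871421-48871540, minus strand, Socs1 at chr16:10785537-10785656, minus strand, Slamf8 at chr1:172590569-172590688, minus strand and Irf1 at chr11:53769894-53770013, plus strand.
Tgtp2: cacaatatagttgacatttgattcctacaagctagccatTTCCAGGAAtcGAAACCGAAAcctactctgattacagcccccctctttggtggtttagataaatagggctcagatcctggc
Igtp: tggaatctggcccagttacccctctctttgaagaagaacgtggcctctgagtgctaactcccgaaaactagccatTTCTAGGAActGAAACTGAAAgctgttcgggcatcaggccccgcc
Irgm2: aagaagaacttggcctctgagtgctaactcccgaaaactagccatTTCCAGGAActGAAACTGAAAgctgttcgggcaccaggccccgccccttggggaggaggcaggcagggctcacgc
Irgm1: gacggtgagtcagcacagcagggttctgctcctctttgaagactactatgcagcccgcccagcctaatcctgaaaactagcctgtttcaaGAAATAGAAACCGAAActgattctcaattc
Socs1: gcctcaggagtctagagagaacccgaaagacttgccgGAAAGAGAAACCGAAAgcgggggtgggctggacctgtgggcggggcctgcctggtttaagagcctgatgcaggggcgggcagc
Slamf8: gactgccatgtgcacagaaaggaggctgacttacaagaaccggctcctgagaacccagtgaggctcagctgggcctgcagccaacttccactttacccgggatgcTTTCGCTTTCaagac
Irf1: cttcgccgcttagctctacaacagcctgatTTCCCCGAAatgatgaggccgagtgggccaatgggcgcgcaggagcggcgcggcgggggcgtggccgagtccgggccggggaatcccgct
In Tgtp2, Igtp and Irgm2 the GAS match is followed by the ISRE match with 2 bases between them. Irgm1 and Socs1 hold overlapping ISRE matches and no GAS match in this stretch, Slamf8 an ISRE match on the other strand, and Irf1 a GAS match without ISRE. The IRG genes are related by duplication, so their shared letters are not separate observations.

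Genes that carry the interferon-gamma signal gave 3 calls. Of 19 receptor, STAT and IRF genes tested, 3 rose and 0 fell, with a median of 0.14 that dropped to 0.061 without OMVs 3. With the block 0 rose, and 6 rose without IN@OMVs 1. Socs1, the feedback inhibitor of JAK kinases, stood at 17.7, 19.2 and 18.6 CPM in OMVs 1, 2 and 3 and 11.4, 11.2 and 10.2 CPM in Control 1, 2 and 3 (log2 difference 0.76 ± 0.11, adjusted p = 0.032, adjusted p = 0.0603 with the block). The transcription factor Irf1 stood at 217, 230.2 and 224 CPM with OMVs against 171, 146 and 156 CPM in Control (log2 difference 0.51 ± 0.076, adjusted p = 0.0375, adjusted p = 0.0698 with the block). Batf2, another transcription factor induced by interferon, stood at 30.6, 35.3 and 33.2 CPM with OMVs against 23, 20.9 and 20.8 CPM in Control (log2 difference 0.61 ± 0.095, adjusted p = 0.0382, adjusted p = 0.102 with the block). All 3 were separated from Control in every library. The receptor genes Ifngr1 (log2 difference -0.09 ± 0.12) and Ifngr2 (log2 difference 0.16 ± 0.11) had overlapping groups.

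Among 17 other interferon-gamma targets, Slamf8 and Ly6a rose and 0 fell (median 0.38, 0.32 to 0.48 when any 1 library was left out), and 12 had higher, non-overlapping values. Slamf8, a SLAM family receptor of macrophages, stood at 78, 84.6 and 94.1 CPM in OMVs 1, 2 and 3 and 47.1, 42.3 and 41.8 CPM in Control 1, 2 and 3 (log2 difference 0.97 ± 0.11, adjusted p = 0.0234). Ly6a, which encodes the surface protein Sca-1, stood at 639.6, 696 and 706 CPM with OMVs against 500.0, 472 and 509 CPM in Control (log2 difference 0.46 ± 0.06, adjusted p = 0.0234, adjusted p = 0.0666 with the block). OMVs 3 was the highest library for both, and neither overlapped with Control. Nos2, which makes nitric oxide in activated macrophages, stood at 311, 489.9 and 487 CPM with OMVs against 270.4, 237 and 244 CPM in Control and did not pass (log2 difference 0.78 ± 0.15, adjusted p = 0.0959, adjusted p = 0.0305 without IN@OMVs 1). Acod1, which makes itaconate, overlapped (log2 difference 0.23 ± 0.13). Log2 differences were, for the Fc receptor Fcgr4, 0.36 ± 0.13 and for complement factor B, Cfb, 0.29 ± 0.12, neither of which passed.

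Antigen presentation and antiviral genes had small differences, and none of them passed. All 19 tested genes of MHC class I presentation and the immunoproteasome had positive log2 fold changes, 0.14 to 0.30, 15 of them with groups that did not overlap (median 0.22). In the fit without IN@OMVs 1, 3 of the 19 rose. Tapbp, which loads peptide onto class I molecules, stood at 514, 516 and 546 CPM with OMVs against 446, 418 and 418 CPM in Control (log2 difference 0.30 ± 0.064, adjusted p = 0.13, adjusted p = 0.0265 without IN@OMVs 1), and the log2 differences were 0.28 ± 0.064 for the peptide transporter Tap2 (adjusted p = 0.0217 without IN@OMVs 1) and 0.23 ± 0.064 for H2-Q4 (adjusted p = 0.0438 without IN@OMVs 1). Of the 16 class II genes 6 did not overlap (median 0.12, and 0.20 without Control 1), and 2 rose without IN@OMVs 1. Cd74, the invariant chain, stood at 4247, 4194 and 4919 CPM with OMVs against 3611, 3532 and 3316 CPM in Control (log2 difference 0.35 ± 0.14, adjusted p = 0.526, adjusted p = 0.0379 without IN@OMVs 1). The class II chains H2-Ab1 (log2 difference 0.36 ± 0.14, adjusted p = 0.0494 without IN@OMVs 1) and H2-Aa (log2 difference 0.35 ± 0.14) were likewise higher in each OMVs library than in each Control library without passing. Of 32 type I interferon antiviral genes, 0 passed, 16 were higher without overlap and 1 lower (median 0.15). Ifi205 (log2 difference 0.44 ± 0.12), Ifi44 (log2 difference 0.40 ± 0.13) and the ubiquitin ligase Herc6 (log2 difference 0.36 ± 0.083, adjusted p = 0.00789 without IN@OMVs 1) had the smallest p-values of that list.

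Chemokine genes gave 3 calls in all. Of 6 T cell attracting chemokines tested, Cxcl9 and Cxcl10, the ligands of CXCR3, rose. Cxcl9 stood at 641, 790.3 and 916 CPM in OMVs 1, 2 and 3 and 443, 418 and 433 CPM in Control 1, 2 and 3 (log2 difference 0.86 ± 0.14, adjusted p = 0.0444, adjusted p = 0.129 with the block). Cxcl10 stood at 291, 373 and 380.2 CPM in OMVs 1, 2 and 3 and 221, 196 and 207 CPM in Control 1, 2 and 3 (log2 difference 0.74 ± 0.12, adjusted p = 0.0459, adjusted p = 0.135 with the block). OMVs 1 was the lowest OMVs library for each. The summed T and NK cell markers, given above, overlapped between OMVs and Control, and the part of these cells in the rises of interferon-inducible genes was not tested. Ccl5, another T cell attractant, did not pass (log2 difference 0.66 ± 0.13, adjusted p = 0.0959, adjusted p = 0.00558 without IN@OMVs 1), and the CCR4 ligands Ccl17 (log2 difference -0.61 ± 0.18) and Ccl22 (log2 difference -0.57 ± 0.14) were lower in each OMVs library than in each Control library without passing.

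Of 7 neutrophil attracting genes, Cxcl1 rose. Cxcl1, a CXCR2 ligand, stood at 52.3, 88.1 and 51 CPM in OMVs 1, 2 and 3 and 24.3, 26.5 and 27.3 CPM in Control 1, 2 and 3 (log2 difference 1.29 ± 0.21, adjusted p = 0.04, adjusted p = 0.042 with the block). OMVs 2 was highest at 88.1 CPM, and all 3 OMVs libraries lay well above Control. Its relatives Cxcl2 (log2 difference 0.094 ± 0.12) and Cxcl3 (log2 difference 0.073 ± 0.088) overlapped between groups. Csf3, the granulocyte colony-stimulating factor, had a log2 fold change of 0.82 ± 0.20 and Cxcl5, another CXCR2 ligand, of -1.40 ± 0.59, and neither passed. Of 11 monocyte attracting genes 0 passed. Their median was 0.42, and 0.25 without OMVs 3. Ccl2, the main CCR2 ligand, stood at 269, 357 and 345 CPM with OMVs against 234, 225 and 241 CPM in Control (log2 difference 0.47 ± 0.11, adjusted p = 0.182, adjusted p = 0.0385 without IN@OMVs 1), Ccl7 had a log2 difference of 0.48 ± 0.16 and the eosinophil attractant Ccl24 -0.79 ± 0.22.

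Cytokine genes showed no call among 15 tested (median 0.049, from -0.033 without Control 3 to 0.14 without OMVs 1). Tnf, an early product of TLR4 signalling, stood at 28.5, 28.2 and 34.4 CPM with OMVs against 29.2, 27.1 and 24.1 CPM in Control (log2 difference 0.18 ± 0.16). Il1b stood at 429.9, 511 and 544 CPM with OMVs against 593, 420.5 and 418 CPM in Control (log2 difference 0.053 ± 0.17), with Control 1 the highest of the 6 libraries. Il6 (log2 difference -0.18 ± 0.27), Il10 (log2 difference 0.053 ± 0.37) and the IL-12 subunit Il12b (log2 difference 0.049 ± 0.34) overlapped as well, and these 3 had low levels in all 6 libraries. The smallest p-values of the list belonged to Osm, a cytokine of the IL-6 family (log2 difference -0.56 ± 0.14, adjusted p = 0.0305 without IN@OMVs 1), Il15 (log2 difference 0.45 ± 0.12) and the IL-1 receptor antagonist Il1rn (log2 difference 0.31 ± 0.13), none of which passed.

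Of 33 genes that sense lipopolysaccharide and other bacterial products, Nod1 rose and 0 fell. Nod1, the receptor for peptidoglycan fragments typical of Gram-negative bacteria, stood at 47.5, 45.2 and 44.6 CPM in OMVs 1, 2 and 3 and 32.5, 34.3 and 34.6 CPM in Control 1, 2 and 3 (log2 difference 0.44 ± 0.065, adjusted p = 0.0363, adjusted p = 0.0854 with the block). Its relative Nod2 stood at 29.6, 32.1 and 28.7 CPM with OMVs against 25.2, 20.7 and 22.6 CPM in Control and did not pass (log2 difference 0.40 ± 0.10, adjusted p = 0.182). Tlr4 (log2 difference 0.066 ± 0.094) and its co-receptor Cd14 (log2 difference -0.14 ± 0.12) overlapped between groups, and the adaptor Ticam2 had a log2 difference of 0.21 ± 0.11. Of 22 NF-kB subunits, inhibitors and targets, 0 passed, 11 were higher without overlap and 1 lower (median 0.23). The inhibitor Nfkbie stood at 86.9, 88.2 and 90.4 CPM with OMVs against 74.4, 69.9 and 69.7 CPM in Control (log2 difference 0.31 ± 0.081, adjusted p = 0.231, adjusted p = 0.0112 without IN@OMVs 1). Ier3 had a log2 difference of 0.40 ± 0.11, Tnfaip2 0.29 ± 0.068 and Ptgs2, the inducible cyclooxygenase, 0.37 ± 0.11. The letters GGGNNNTTCC, a form of the NF-kB site, were found in 7 of the 18 NF-kB genes with a window (38.9%) against 7.41% of all genes, and in 4 of the 28 genes that rose with a window (14.3%).

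Among 15 checkpoint and costimulatory genes, Pdcd1lg2 and Slamf8 rose and 0 fell. Pdcd1lg2, which encodes the PD-1 ligand PD-L2, stood at 16.1, 20.3 and 19.7 CPM in OMVs 1, 2 and 3 and 11.3, 8.54 and 7.49 CPM in Control 1, 2 and 3 (log2 difference 1.04 ± 0.17, adjusted p = 0.04, adjusted p = 0.127 with the block). Control 1 was the highest Control library and lay below OMVs 1, the lowest with OMVs. Cd274, which encodes PD-L1, stood at 198, 242 and 259 CPM with OMVs against 154, 139.9 and 136 CPM in Control (log2 difference 0.70 ± 0.12), with an adjusted p = 0.0615, and adjusted p = 0.0113 without IN@OMVs 1. Cd86, a ligand of CD28, overlapped (log2 difference 0.14 ± 0.14).

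Angiogenic and growth factor genes split by member. Of 18 tested, Pgf and Nrg1 rose and 0 fell, and the median was 0.013 (from -0.047 without OMVs 3 to 0.13 without OMVs 1). Pgf, placental growth factor, a VEGF family ligand, had the largest log2 rise of all genes that passed and stood at 17.4, 27.4 and 21.7 CPM in OMVs 1, 2 and 3 and 8.94, 9.76 and 8.18 CPM in Control 1, 2 and 3 (log2 difference 1.31 ± 0.16, adjusted p = 0.0234, adjusted p = 0.042 with the block). Its receptor Flt1, which also binds VEGF-A, rose from 7.21, 6.9 and 6.8 CPM in Control to 10.5, 11 and 10.0 CPM (log2 difference 0.59 ± 0.10, adjusted p = 0.0459, adjusted p = 0.135 with the block). Nrg1, neuregulin 1, a ligand of ErbB receptors, stood at 33.4, 44.1 and 43.3 CPM in OMVs 1, 2 and 3 and 21.9, 20.6 and 21.1 CPM in Control 1, 2 and 3 (log2 difference 0.93 ± 0.11, adjusted p = 0.0234). OMVs 2 and 3 lay at about the same level for Nrg1, and OMVs 1 lower but above Control. Vegfa stood at 166, 246 and 195 CPM with OMVs against 119.9, 123 and 132 CPM in Control and did not pass (log2 difference 0.69 ± 0.14, adjusted p = 0.117, adjusted p = 0.0189 without IN@OMVs 1). Of 27 glycolysis and hypoxia genes 0 passed and 10 were higher without overlap. The oxygen sensor Egln3 had a log2 difference of 0.55 ± 0.10 (adjusted p = 0.016 without IN@OMVs 1) and the glucose transporter Slc2a1 0.30 ± 0.081. Of 21 matrix enzymes and inhibitors 0 passed. The macrophage elastase Mmp12 stood at 292, 422 and 462 CPM with OMVs against 194, 229 and 211 CPM in Control (log2 difference 0.89 ± 0.15, adjusted p = 0.0572, adjusted p = 0.0135 without IN@OMVs 1), the collagenase Mmp13 had a log2 difference of 1.05 ± 0.20 (adjusted p = 0.0256 without IN@OMVs 1) and Mmp8 -0.36 ± 0.14.

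Heat shock chaperones, which refold proteins in the cytosol and nucleus under HSF1, gave 4 calls. Of 21 members tested 4 rose and 0 fell, and 18 were higher in every OMVs library than in every Control library. The median was 0.30 and stayed between 0.28 and 0.33 when any 1 library was left out. With the block 2 rose, and 11 rose without IN@OMVs 1. Hsph1, an HSP110 chaperone, stood at 196, 202 and 184 CPM in OMVs 1, 2 and 3 and 97.9, 102 and 110.0 CPM in Control 1, 2 and 3 (log2 difference 0.91 ± 0.14, adjusted p = 0.0375, adjusted p = 0.0622 with the block). Dnaja1, a J-domain partner of HSP70, stood at 266, 256 and 285 CPM in OMVs 1, 2 and 3 and 186, 185 and 194 CPM in Control 1, 2 and 3 (log2 difference 0.51 ± 0.061, adjusted p = 0.0234). Chordc1, a partner of HSP90, stood at 84.8, 89.96 and 90.9 CPM in OMVs 1, 2 and 3 and 64.1, 64.1 and 67.1 CPM in Control 1, 2 and 3 (log2 difference 0.44 ± 0.05, adjusted p = 0.0234). The spread within each group was narrow for Dnaja1 and Chordc1, and both passed with the block too. Bag3, a cochaperone that directs proteins to autophagy, stood at 61.8, 62.1 and 57.9 CPM with OMVs against 48.3, 49.2 and 47.4 CPM in Control (log2 difference 0.33 ± 0.052, adjusted p = 0.0403, adjusted p = 0.0997 with the block). The constitutive HSP70 gene Hspa8 (log2 difference 0.46 ± 0.078, adjusted p = 0.0507, adjusted p = 0.00368 without IN@OMVs 1) and Dnajb1 (log2 difference 0.50 ± 0.10, adjusted p = 0.00376 without IN@OMVs 1) did not pass. The inducible HSP70 genes Hspa1a (log2 difference 0.063 ± 0.20) and Hspa1b (log2 difference 0.034 ± 0.091) overlapped, with Hspa1a at 68.6, 71.4 and 81.5 CPM with OMVs against 80.8, 64.8 and 66.4 CPM in Control.

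Cirbp and Rbm3, the RNA-binding proteins induced by mild cold, fell. Cirbp stood at 24.7, 27 and 23.4 CPM in OMVs 1, 2 and 3 and 39.8, 41.7 and 37.2 CPM in Control 1, 2 and 3 (log2 difference -0.66 ± 0.084, adjusted p = 0.0234, adjusted p = 0.0603 with the block). Rbm3 stood at 528, 511 and 506 CPM in OMVs 1, 2 and 3 and 722, 665 and 662 CPM in Control 1, 2 and 3 (log2 difference -0.41 ± 0.061, adjusted p = 0.0363, adjusted p = 0.0603 with the block), and its expected counts were fractional in all 9 libraries. Neither gene overlapped with Control. The heat shock element was searched as GAANNTTCNNGAA on both strands. It was found in 4 of 18 chaperone genes with a window (22.2%) against 0.564% of all genes. Among these 4, Hspd1 and Hspe1 have overlapping windows on opposite strands that hold the same stretch, so they are not separate observations. The element was in 2 of the 28 genes that rose with a window (7.14%) and in 1 of the 11 that fell (9.09%, Slco2b1). Hsph1 and Chordc1, the 2 among the rises, hold it at their start, and 30 bases are shown for each with the element in capitals (overlapping matches are joined). Chordc1 lies at chr9:18292259-18292288, plus strand and Hsph1 at chr5:149636287-149636316, minus strand, where the element follows the start.
Chordc1: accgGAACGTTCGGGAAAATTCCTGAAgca
Hsph1: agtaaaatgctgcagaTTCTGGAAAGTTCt
The matches describe letters only.

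The unfolded protein response of the endoplasmic reticulum gave 1 call. Of 20 members tested Herpud1 rose, 0 fell, all had positive log2 fold changes and 14 did not overlap (median 0.19, 0.15 to 0.22 when any 1 library was left out). Without IN@OMVs 1, 6 rose. Herpud1, which takes part in the degradation of misfolded proteins, stood at 84.8, 91.8 and 90.9 CPM with OMVs against 69.7, 63.9 and 65 CPM in Control (log2 difference 0.43 ± 0.059, adjusted p = 0.0267, adjusted p = 0.0759 with the block). The chaperone Hspa5, known as BiP, stood at 1397, 1359.6 and 1453 CPM with OMVs against 1064, 1059 and 1102 CPM in Control (log2 difference 0.38 ± 0.066, adjusted p = 0.0574, adjusted p = 0.0047 without IN@OMVs 1) and the ubiquitin ligase Syvn1 had a log2 difference of 0.29 ± 0.052 (adjusted p = 0.0615, adjusted p = 0.0112 without IN@OMVs 1). The endoplasmic reticulum stress element, searched as CCAAT and CCACG with 9 bases between, was found in 7 of 17 members with a window (41.2%) against 0.172% of all genes. Herpud1 was not among the 7, and the element was in 0 of the 28 genes that rose and 1 of the 11 that fell (Xlr3b) with a window. Of 14 genes of the integrated stress response 0 passed and all were positive (median 0.18). Atf4 had a log2 difference of 0.14 ± 0.068, Ddit3 0.28 ± 0.10 and Chac1, which degrades glutathione, 0.64 ± 0.34.

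Resident-like scavenger macrophage genes held 3 of the 5 largest falls. Of 19 tested, Cd163, Lyve1 and Slco2b1 fell and 0 rose, and 6 were lower without overlap (median -0.21, from -0.40 without OMVs 3 to -0.10 without OMVs 1). With the block 2 fell, and 5 fell without IN@OMVs 1. Cd163, the haemoglobin scavenger receptor, stood at 2.41, 2.22 and 5.14 CPM in OMVs 1, 2 and 3 and 10.4, 16.1 and 17.9 CPM in Control 1, 2 and 3 (log2 difference -2.18 ± 0.33, adjusted p = 0.0363, adjusted p = 0.042 with the block). OMVs 3 was the highest library with OMVs, and still lay below Control 1, the lowest Control. Lyve1, a hyaluronan receptor, stood at 1.44, 1.69 and 2.99 CPM in OMVs 1, 2 and 3 and 6.2, 9.3 and 11.2 CPM in Control 1, 2 and 3 (log2 difference -2.12 ± 0.32, adjusted p = 0.0382) and repeated that order. Slco2b1, an organic anion transporter, stood at 4.02, 3.96 and 5.02 CPM in OMVs 1, 2 and 3 and 11.9, 13.6 and 16 CPM in Control 1, 2 and 3 (log2 difference -1.67 ± 0.23, adjusted p = 0.0293, adjusted p = 0.0652 with the block). Other members of the list did not follow: Mrc1, the mannose receptor, stood at 871, 1112 and 1328 CPM with OMVs against 838, 929 and 1000.3 CPM in Control (log2 difference 0.26 ± 0.16), and Folr2 (log2 difference -0.18 ± 0.20), Stab1 (log2 difference -0.017 ± 0.16) and Timd4 (log2 difference 0.16 ± 0.35) overlapped. Gas6, a ligand of TAM receptors, had a log2 difference of -0.35 ± 0.16. Cd209f had a log2 fold change of -3.24 ± 0.67 at 0.115, 0.0583 and 0.657 CPM with OMVs against 1.31, 2.98 and 3.63 CPM in Control and did not pass (adjusted p = 0.116, adjusted p = 0.035 without IN@OMVs 1).

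Alternative activation genes were mixed. Of 18 tested, Retnla and Chil3 fell and Pdcd1lg2, described above, rose (median -0.09, -0.0008 without Control 1). Chil3, the chitinase-like protein Ym1, stood at 169.8, 121 and 156 CPM in OMVs 1, 2 and 3 and 402, 325 and 285 CPM in Control 1, 2 and 3 (log2 difference -1.18 ± 0.15, adjusted p = 0.0234, adjusted p = 0.042 with the block). Retnla, known as RELM-alpha, stood at 0.574, 0.583 and 0.657 CPM in OMVs 1, 2 and 3 and 1.67, 4.15 and 4.55 CPM in Control 1, 2 and 3 (log2 difference -2.50 ± 0.40, adjusted p = 0.0403, adjusted p = 0.0433 with the block). Control 1 was low for Retnla but lay above the 3 OMVs libraries, which were close together. Arg1, arginase 1, stood at 1523, 1936 and 2259 CPM with OMVs against 1419, 1567 and 1721 CPM in Control and overlapped (log2 difference 0.28 ± 0.13). Mgl2, a lectin used as a marker of this state, had a log2 difference of 0.58 ± 0.13 (adjusted p = 0.135, adjusted p = 0.0338 without IN@OMVs 1), in the direction opposite to Retnla.

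Summed monocyte markers were lower in each OMVs library than in each Control library. Of 15 in the table, none at 0 in all libraries, Chil3, Hp and Nr4a1 fell, 0 rose and 8 were lower without overlap (median -0.38, -0.45 to -0.27 when any 1 library was left out). Their summed level was 2520.0, 2376 and 2845 CPM in OMVs 1, 2 and 3 and 3612, 3385 and 3304 CPM in Control 1, 2 and 3. Chil3 stands on the alternative activation list as well, and the part of monocyte transcripts in its fall was not tested. Ly6c2 (log2 difference 0.045 ± 0.23) and Ms4a4c (log2 difference 0.017 ± 0.16), markers of classical monocytes, overlapped, while Ccr2, their chemokine receptor, had a log2 difference of -0.33 ± 0.13 and Ace, a marker of patrolling monocytes, -0.82 ± 0.18 (adjusted p = 0.00157 without IN@OMVs 1). Neutrophil markers (11 of 13 tested) summed to 715, 565 and 750.3 CPM with OMVs and 1160.0, 792 and 791 CPM in Control, again without overlap. None of them passed in the fit without the block. Ly6g had a log2 difference of -1.22 ± 0.24 (adjusted p = 0.0389 without IN@OMVs 1), Retnlg -0.94 ± 0.24 (adjusted p = 0.042 with the block, under which it alone of the list passed) and the calprotectin subunit S100a8 -0.59 ± 0.17.

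Nr4a1, an orphan nuclear receptor induced early by many stimuli and needed for patrolling monocytes, stood at 64.2, 51.3 and 55.1 CPM in OMVs 1, 2 and 3 and 142, 104 and 95.1 CPM in Control 1, 2 and 3 (log2 difference -1.001 ± 0.16, adjusted p = 0.0382, adjusted p = 0.0284 with the block). It was the only call among 24 immediate early and NR4A genes (median -0.10, -0.037 without Control 1). Of the 24, 6 were lower and 1 higher without overlap, against 9.89% of all genes tested in each direction. The antiproliferative gene Btg2 (log2 difference -0.51 ± 0.13) and Fosb (log2 difference -0.48 ± 0.15) did not pass, though both did without IN@OMVs 1 (adjusted p = 0.0143 for Btg2 and 0.0154 for Fosb). Of 6 acute phase genes tested, Hp fell. Hp, haptoglobin, which binds free haemoglobin and is also carried by neutrophils and monocytes, stood at 181, 166 and 199 CPM in OMVs 1, 2 and 3 and 307, 293 and 277 CPM in Control 1, 2 and 3 (log2 difference -0.68 ± 0.092, adjusted p = 0.0245, adjusted p = 0.0532 with the block). Saa3 stood at 359.9, 410.4 and 534 CPM with OMVs against 442, 572 and 598 CPM in Control and overlapped (log2 difference -0.31 ± 0.18). Lcn2, which binds bacterial siderophores, had a log2 difference of -0.39 ± 0.14 and Ptx3 -1.68 ± 0.72. Cd163 and Hp, the receptor and its haemoglobin-binding partner, were also the 2 calls among 15 haem and iron genes. Blvrb, a biliverdin reductase, had a log2 difference of 0.30 ± 0.10.

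**Figure D4:**
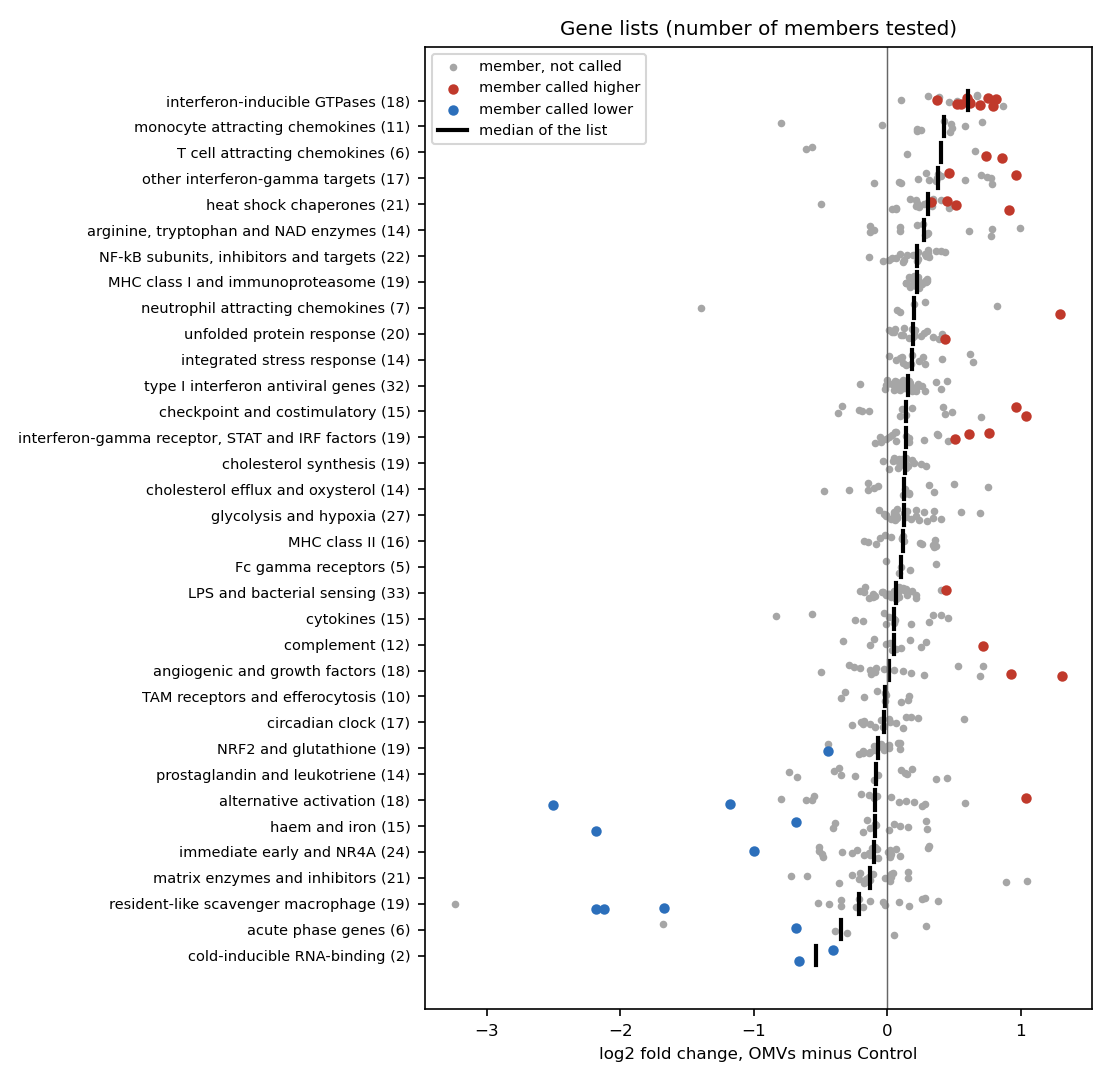
Log2 fold changes of OMVs minus Control for the tested members of 34 gene lists, ordered by median (black bars), with members that rose in red, members that fell in blue and the others in grey. Interferon-inducible GTPases have the highest median, 0.60, and cold-inducible RNA-binding genes the lowest, -0.53.

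Redox, lipid and arginine genes gave few calls. Of 19 NRF2 and glutathione genes, Gsr fell. Gsr, glutathione reductase, stood at 109.8, 99.2 and 107 CPM in OMVs 1, 2 and 3 and 155, 137 and 139 CPM in Control 1, 2 and 3 (log2 difference -0.45 ± 0.069, adjusted p = 0.0382, adjusted p = 0.107 with the block), and Osgin1 had a log2 difference of -0.45 ± 0.18 and Gclc, which starts glutathione synthesis, -0.14 ± 0.058. Of 14 genes of arginine, tryptophan and NAD metabolism 0 passed (median 0.28, 0.15 without OMVs 3). The arginine transporter Slc7a2 had a log2 difference of 0.61 ± 0.15 and Ass1, which regenerates arginine, 0.30 ± 0.11. Of 19 cholesterol synthesis genes 0 passed and 7 were higher without overlap (median 0.13), with log2 differences of Cyp51 at 0.26 ± 0.054 (adjusted p = 0.0281 without IN@OMVs 1), Fdps at 0.29 ± 0.079 and Mvd at 0.18 ± 0.059. Of 14 efflux and oxysterol genes 0 passed. Gpnmb, a marker of lipid-laden macrophages, stood at 58, 68 and 74.1 CPM with OMVs against 36.5, 41.2 and 40.6 CPM in Control (log2 difference 0.76 ± 0.13, adjusted p = 0.0615), which passed with the block (adjusted p = 0.042) and without IN@OMVs 1 (adjusted p = 0.00346). Fabp5, a fatty acid carrier, had a log2 difference of 0.50 ± 0.14, Mylip, which degrades the LDL receptor, -0.48 ± 0.11 (adjusted p = 0.0438 without IN@OMVs 1) and Apoe -0.15 ± 0.18.

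Of 12 complement genes, C3 rose. C3, the central component, stood at 1167, 1190.3 and 1426 CPM in OMVs 1, 2 and 3 and 729, 789 and 783 CPM in Control 1, 2 and 3 (log2 difference 0.72 ± 0.10, adjusted p = 0.0247, adjusted p = 0.0748 with the block), with OMVs 3 the highest library. Of 14 prostaglandin and leukotriene genes 0 passed, 3 were higher and 5 lower without overlap (9.89% of all genes tested in each direction). Alox5, which starts leukotriene synthesis, stood at 12.9, 11.3 and 14 CPM with OMVs against 19.6, 20.4 and 21.1 CPM in Control (log2 difference -0.68 ± 0.12, adjusted p = 0.0618, adjusted p = 0.0049 without IN@OMVs 1), and Pla2g4a, a phospholipase that frees arachidonic acid, had a log2 difference of 0.15 ± 0.062. Fc gamma receptors (5 tested), TAM receptor and efferocytosis genes (10) and clock genes (17) had 0 calls. The log2 differences there were 0.17 ± 0.13 for Fcgr2b, 0.10 ± 0.14 for Fcgr3, -0.17 ± 0.089 for the TAM receptor ligand Pros1, -0.32 ± 0.19 for Cd36, 0.57 ± 0.14 for Ciart, -0.18 ± 0.058 for Cry1 and -0.20 ± 0.12 for Nr1d2.

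Other genes that passed are on none of these lists. Xlr3b, an imprinted gene of the X-linked lymphocyte-regulated family, had the smallest p of all and stood at 1.9, 1.75 and 1.55 CPM in OMVs 1, 2 and 3 and 7.75, 8.36 and 7.49 CPM in Control 1, 2 and 3 (log2 difference -2.18 ± 0.19, adjusted p = 0.0143, adjusted p = 0.0228 with the block). Its level with OMVs was 0.221 times that of Control with little spread in either group, but its expected counts were fractional in all 9 libraries, so its share among the Xlr3 copies is uncertain. Slc4a11, a membrane transporter, stood at 13.3, 16 and 16.6 CPM in OMVs 1, 2 and 3 and 8.34, 8.48 and 7.43 CPM in Control 1, 2 and 3 (log2 difference 0.92 ± 0.12, adjusted p = 0.0234, adjusted p = 0.0735 with the block). Scarf1, a scavenger receptor, stood at 24.7, 25.9 and 29.8 CPM in OMVs 1, 2 and 3 and 15.2, 16.3 and 15.2 CPM in Control 1, 2 and 3 (log2 difference 0.78 ± 0.12, adjusted p = 0.0363, adjusted p = 0.107 with the block). Neither overlapped with Control. A larger rise was that of Itga8, an integrin subunit (log2 difference 1.18 ± 0.18). Smaller rises were those of Banp, a nuclear DNA-binding protein (log2 difference 0.68 ± 0.091), LOC118568792 (log2 difference 0.58 ± 0.09), Abtb2 (log2 difference 0.45 ± 0.073) and Trmt1l, a tRNA methyltransferase relative (log2 difference 0.35 ± 0.055). The calls upward also included the predicted genes Gm40814 and Gm12185. Expected counts were fractional in 8 libraries for LOC118568792 and in all 9 for Gm40814 and Gm12185, so their values are uncertain.

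Among the other falls, Htra3, a secreted protease, stood at 36.7, 35.7 and 34.1 CPM in OMVs 1, 2 and 3 and 49.8, 55.8 and 47.2 CPM in Control 1, 2 and 3 (log2 difference -0.52 ± 0.083, adjusted p = 0.04, adjusted p = 0.0785 with the block). Hopx, a homeodomain protein that does not bind DNA itself, stood at 30.3, 28.9 and 28.7 CPM in OMVs 1, 2 and 3 and 40.8, 39.1 and 37 CPM in Control 1, 2 and 3 (log2 difference -0.41 ± 0.063, adjusted p = 0.0382, adjusted p = 0.117 with the block). Fkbp5, a cochaperone induced by glucocorticoids that restrains their receptor, stood at 130.1, 140.0 and 135 CPM with OMVs against 172, 175 and 174 CPM in Control (log2 difference -0.36 ± 0.049, adjusted p = 0.0245, adjusted p = 0.0759 with the block). Control values of Fkbp5 spanned only 172 to 175 CPM, so a small fall was separated. Pmepa1, an inhibitor of TGF-beta signalling, had a log2 difference of -0.40 ± 0.066 and Dmkn, dermokine, -1.57 ± 0.20 at 0.977, 1.05 and 1.08 CPM with OMVs against 3.58, 2.92 and 2.77 CPM in Control.

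Markers of other cells gave no calls outside the monocyte list. In the macrophage list (13 of 13 tested, summed level 17760.0, 18790.0 and 23650.0 CPM with OMVs and 18330.0, 19380.0 and 20690.0 CPM in Control) the groups of all 13 overlapped, with a log2 difference of 0.18 ± 0.14 for Lyz2. T cell markers had log2 differences of -0.37 ± 0.90 for Cd8a, 0.42 ± 0.78 for Cd5 and 0.30 ± 0.093 for Il7r, and the list's median went from -1.04 without OMVs 1 to 1.20 without Control 1. NK cell markers behaved alike, with a median from -1.32 without OMVs 1 to 1.31 without Control 1. Of 7 tested, 3 had positive log2 fold changes, up to 0.35, and 4 negative ones. Among the negative were Prf1 (log2 difference -0.38 ± 0.98), Klrb1c (log2 difference -0.67 ± 0.92) and Ncr1 (log2 difference -0.76 ± 1.18). Fibroblast genes were lower on average without a call (8 negative and 1 positive of 9 tested), with log2 differences of Col3a1 at -0.43 ± 0.33, Lum at -1.08 ± 0.65 and Postn at -0.60 ± 0.64. Endothelial markers summed to 38.5, 39.5 and 46.6 CPM with OMVs and 30.6, 32 and 33.5 CPM in Control. Of the 6 endothelial markers tested, 3 had positive and 3 negative log2 fold changes, the lowest -0.165. The positive ones were Pecam1 (log2 difference 0.53 ± 0.13, adjusted p = 0.0389 without IN@OMVs 1), Vwf (log2 difference 0.35 ± 0.16) and Esam (log2 difference 0.48 ± 0.41). The part of endothelial transcripts in the rise of Flt1, which endothelial cells also express, was not tested. Dendritic cell genes gave log2 differences of 0.63 ± 0.22 for Clec9a, -0.75 ± 0.32 for Flt3, -1.21 ± 0.39 for Cd209a and 0.19 ± 0.51 for Ccr9. B cell, eosinophil, erythroid and epithelial genes lay near the filter, with log2 differences of -0.42 ± 0.28 for Cd79b, 0.70 ± 0.39 for Pax5, -0.57 ± 0.88 for Jchain, -0.63 ± 0.31 for Siglecf, -0.11 ± 0.25 for Ccr3, 0.69 ± 0.76 for Hba-a1, 0.039 ± 0.71 for Hba-a2 and -0.79 ± 0.32 for Epcam. Mast cell markers did not pass the filter. Cell cycle genes summed to 2234, 2193 and 2025 CPM and 1912, 2132 and 2178 CPM, with log2 differences of Tyms at 0.15 ± 0.083, Mcm3 at 0.13 ± 0.076 and Mcm5 at 0.16 ± 0.087. Of the 15 tested, 11 were positive and 4 negative, down to -0.0822.

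At the 55 genes, OMVs and IN@OMVs were set side by side to show where they differed. The test of IN@OMVs minus OMVs in the same fit called 31 of the 55, against 2.85% of all genes tested. It uses the same OMVs libraries that gave the 55, so the count is a description. Pgf, Nrg1 and Cxcl1 were lower in IN@OMVs than in OMVs. Pgf stood at 7.33, 7.41 and 6.87 CPM in IN@OMVs 1, 2 and 3, a log2 difference of -1.62 ± 0.16 relative to OMVs (adjusted p = 0.00144). Nrg1 stood at 15.5, 17 and 16.6 CPM in IN@OMVs (log2 difference -1.30 ± 0.11, adjusted p = 0.000635) and Cxcl1 at 7.94, 10.6 and 8.5 CPM (log2 difference -2.82 ± 0.22, adjusted p = 0.000508). All IN@OMVs values of these 3 lay below the Control range. Against Control, IN@OMVs passed for Cxcl1 (log2 difference -1.53 ± 0.22, adjusted p = 0.00445). It did not pass for Pgf (log2 difference -0.31 ± 0.16, adjusted p = 0.344) or Nrg1 (log2 difference -0.37 ± 0.11, adjusted p = 0.0868). Retnla, low in OMVs, was within or above the Control range in IN@OMVs, at 3.33, 4.56 and 5.12 CPM (log2 difference 2.83 ± 0.40, adjusted p = 0.00634). Its difference between IN@OMVs and Control did not pass (log2 difference 0.33 ± 0.34, adjusted p = 0.668). Fkbp5 (log2 difference 0.40 ± 0.049, adjusted p = 0.0031) and Rbm3 (log2 difference 0.52 ± 0.061, adjusted p = 0.00274) were higher in IN@OMVs than in OMVs, and C3 lower (log2 difference -0.47 ± 0.10, adjusted p = 0.0386). When 1 library was left out at a time, the difference in C3 kept its direction but passed in only 1 of the 9 omissions.

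The 10 interferon-inducible GTPases that rose with OMVs were all higher again in IN@OMVs in this fit. When any 1 library was left out, the difference from OMVs kept its direction, but Gbp5 passed in 3 and Gbp4 in 6 of the 9 omissions. Iigp1 stood at 596, 533 and 560.2 CPM there (log2 difference 0.88 ± 0.092 relative to OMVs, adjusted p = 0.00162) and Tgtp2 at 331, 288 and 294 CPM (log2 difference 0.87 ± 0.074, adjusted p = 0.000635). Hp (log2 difference -3.52 ± 0.11, adjusted p = 1.39e-06), Nr4a1 (log2 difference -1.38 ± 0.16, adjusted p = 0.00291) and Gsr (log2 difference -0.81 ± 0.07, adjusted p = 0.000635) were lower in IN@OMVs than in OMVs. No difference between the vesicles was called for Cxcl9 (log2 difference 0.36 ± 0.14), Cxcl10 (log2 difference 0.25 ± 0.12), Chil3 (log2 difference -0.22 ± 0.15), Cd163 (log2 difference -0.27 ± 0.34), Lyve1 (log2 difference -0.049 ± 0.34) or Xlr3b (log2 difference -0.052 ± 0.20), nor for the chaperones Hsph1 (log2 difference -0.38 ± 0.14), Dnaja1 (log2 difference -0.013 ± 0.06) and Chordc1 (log2 difference -0.19 ± 0.05). A difference that was not called does not show that the vesicles acted alike, since the standard errors for Cd163 and Lyve1 were over 0.3.

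**Figure D5:**
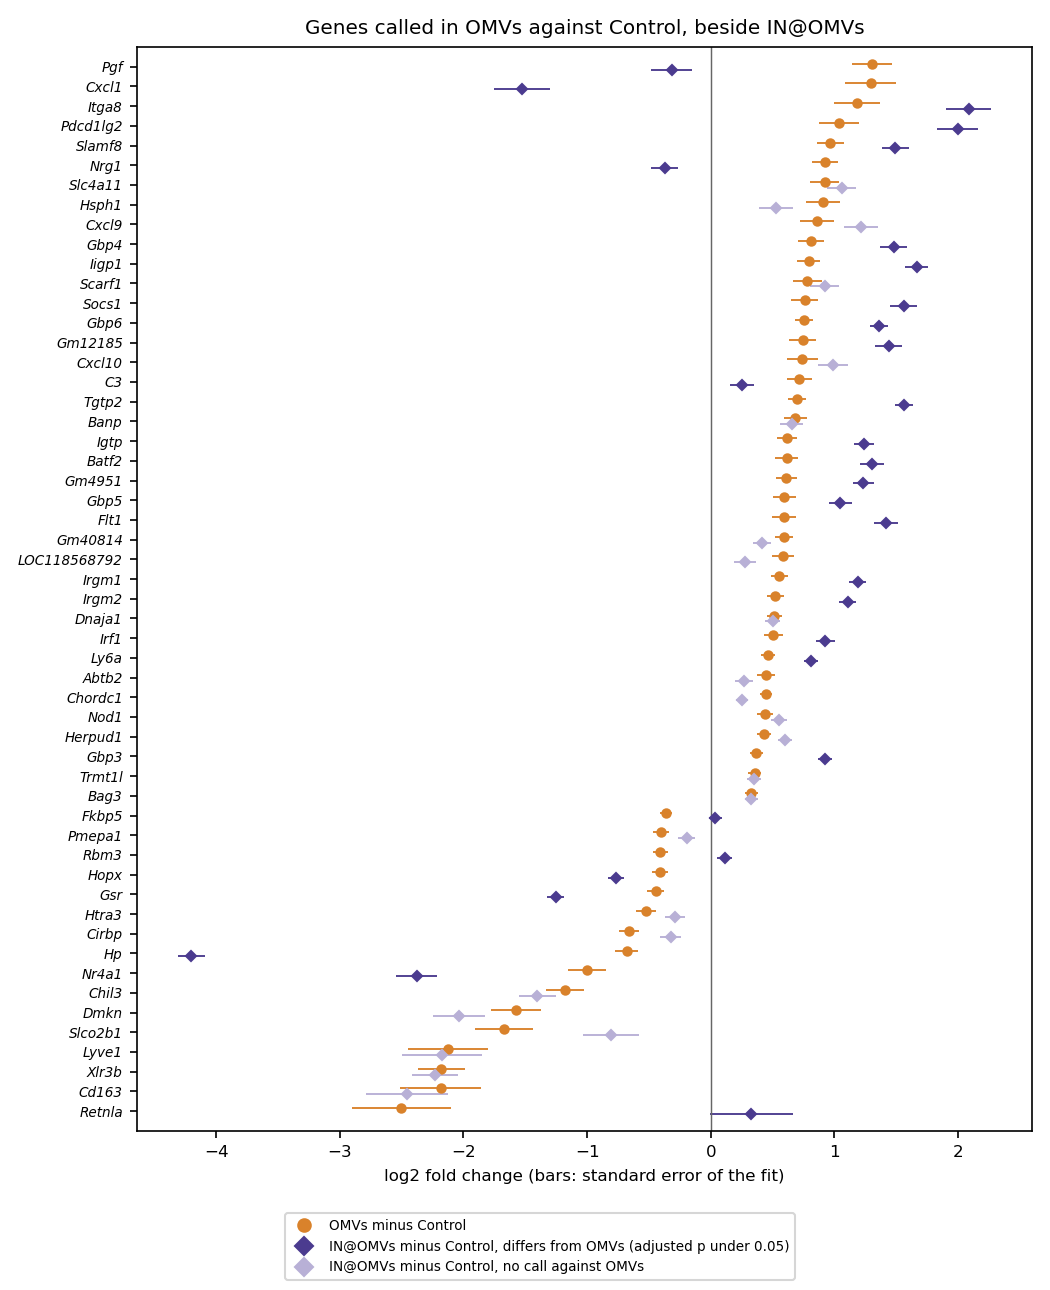
Log2 fold changes against Control (bars, standard error of the fit) of 54 of the 55 genes in OMVs (circles) and IN@OMVs (diamonds, dark where IN@OMVs differed from OMVs at an adjusted p under 0.05). Both series share the 3 Control libraries. Pgf, Nrg1, Cxcl1 and Retnla lie on opposite sides of 0 for the 2 vesicles, though of these only Cxcl1 passed in IN@OMVs against Control. Fkbp5 and Rbm3 lie near 0 in IN@OMVs.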

How the data were processed

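The deposited table gives expected counts per gene, which the authors made with tools that the submitters' processing notes list as BWA, Bowtie2 and RSEM, and with builds mm9 and hg19, without versions or roles. The counts were rounded and fitted with edgeR 4.0.16 in R 4.3.3 (TMM, filterByExpr, quasi-likelihood F-test, all 9 libraries, 1 mean per group, common dispersion 0.0172, 6 residual degrees of freedom). P-values were adjusted by Benjamini-Hochberg over the 13090 genes tested, and called at 0.05 whatever the fold. Errors are standard errors of the fit. Other genes described above with fractional expected counts included Mgl2, Hspa5, Ifi205 and H2-Q4 (all 9 libraries) and Ly6a (6 libraries). The steps were tested on simulated data.

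Alternatives were limma-voom (limma 3.58.1), DESeq2 1.42.0 and its size factors, no filter, the 6 libraries alone, each library left out, and the replicate number as a block. The labels do not say what a number marks. Deviations from the group means correlated between OMVs and Control libraries of the same number (0.557, 0.427 and 0.127). With 3 libraries a group such deviations are tied to one another, so these correlations are not separate observations and do not establish a pairing. OMVs 2 also correlated with Control 3 (0.434). Between IN@OMVs and OMVs the same numbers gave -0.0383, 0.612 and -0.508, and the block was therefore also fitted to the 6 libraries alone. The libraries numbered 1 did share a trait. Each held the highest summed T and NK cell markers of its group, IN@OMVs 1 included (323 and 50.7 CPM). Whether the numbers mark a pairing was not tested further.

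The 34 gene lists, 15 marker lists and rules were chosen with earlier results of these data known. Named were all genes that passed and, in every library, the 12 of them with the largest change in each direction (mean of at least 5 CPM in the higher group, no overlap, no predicted models), the 3 list members of smallest p, and 20 macrophage genes. A few genes, 1 of the 55 among them, are counted but not reported here. Other genes in the text were chosen after their values were seen. Coordinates are given only for promoter stretches, from RefSeq on GRCm38.p6, since the table's build is not stated in the sources used here.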

Additional observations from a re-analysis of the deposited data

How the results depend on the processing

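All 55 genes that passed kept their direction in the 17 alternatives run, while their number moved. It was 55 with DESeq2 size factors and 59 without the filter on low counts, 115 in a fit of the 6 libraries alone, 207 with DESeq2, 36 with limma-voom and 20 with the replicate number as a block. Of 2 alternatives chosen after the data had been seen, the block in the 6 libraries alone gave 195 and leaving out the 3 libraries numbered 1 gave 313. Leaving out 1 library at a time gave 0 to 266, the lowest without OMVs 2, OMVs 3, Control 2 or Control 3 and the highest without IN@OMVs 1, and 0 of the 55 genes passed under every omission. The fits with fewer libraries hold fewer residual degrees of freedom, yet they gave both fewer and more calls than 55, and the part of this in the counts was not tested. Why leaving out IN@OMVs 1 added calls was not tested beyond its distance from its group. At the 55 genes, the calls between IN@OMVs and OMVs stayed between 21 and 34 around 31. Of the 189 genes run under the alternatives, directions turned in 24, none of which had passed. Their log2 fold changes over the 9 omissions ran from -1.99 to 0.46 for Jchain, -0.28 to 0.10 for Ccr3, -0.20 to 1.00 for Hba-a1, -0.61 to 0.36 for Hba-a2, -0.0055 to 0.19 for Fcgr3, -1.84 to 1.07 for Klrb1c, -3.26 to 1.05 for Ncr1, -1.81 to 1.32 for Prf1, -0.11 to 1.09 for Ccr9, -0.43 to 1.77 for Cd5, -1.50 to 0.92 for Cd8a, -0.13 to 0.13 for Adgre1, -0.013 to 0.14 for Tlr4, -0.033 to 0.24 for Il1b, -0.021 to 0.15 for Il10, -0.17 to 0.57 for Il12b, -0.014 to 0.17 for Hspa1a, -0.0094 to 0.15 for Cxcl3, -0.066 to 0.25 for Gbp2b, -0.038 to 0.14 for Hspa1b, -0.091 to 0.23 for Ly6c2, -0.0799 to 0.071 for Ms4a4c, -0.16 to 0.085 for Stab1 and -0.15 to 0.41 for Timd4. Hba-a2 also turned with the replicate block (-0.042), with limma-voom (-0.065) and without the libraries numbered 1 (-0.67), and Stab1 without the libraries numbered 1 (0.024). The cause was not tested. With 3 libraries a group, differences in genes of low count, such as Il6 and Il10, were not detectable at this depth unless large.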
